A study of Mus musculus with 4 samples.

Results

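miR-21a is a microRNA precursor whose 2 arms were read in small RNA libraries of the mouse main olfactory epithelium, the tissue at the back of the nose that holds the olfactory sensory neurons with their supporting and stem cells. Rows were taken by name from a deposited table of 1167 miRNAs, and 3 of them belong here: the guide strand (mmu-miR-21a-5p), the passenger strand (mmu-miR-21a-3p) and a look-alike (mmu-miR-21c). The look-alike miR-21b was not analysed here. All 4 libraries came from male C57BL/6 mice 3 months of age. There were 2 from wild-type mice and 2 from AC3-/- mice, which lack adenylyl cyclase 3, the cyclase that turns odorant receptor activation into cAMP in these neurons. The labels give the null genotype and no further detail of the allele, and they do not tie a library to 1 animal, so the spread behind each p-value is that of libraries and may be technical. These libraries do not read the AC3 mRNA, and the genotype was not checked in the data.

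A miRNA gene is transcribed into a long RNA that folds into a hairpin, and cutting by Drosha and Dicer leaves a short duplex. One strand, the guide, is loaded into an Argonaute protein and finds target mRNAs mainly through its seed, while the other strand, the passenger, is usually degraded. miR-21 is made in many cell types, epithelium, fibroblasts and leukocytes among them, and is known for its rise in injured, inflamed and fibrotic tissue. The tumour suppressor Pdcd4 is among its best-known targets. In a whole tissue, fewer cells of a type and less RNA per cell cannot be told apart.

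The mature sequences are shown to set the guide beside its passenger and its look-alikes. They are RefSeq sequences on GRCm38.p6, written 5′ to 3′, with the seed (bases 2 to 8) in capitals.
miR-21a-5p: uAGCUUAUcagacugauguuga
miR-21a-3p: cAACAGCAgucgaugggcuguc
miR-21c: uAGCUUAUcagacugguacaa
miR-21b: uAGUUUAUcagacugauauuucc

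miR-21c has the seed of miR-21a-5p and the same first 15 bases. Counted from 1 at the 5′ end of miR-21a-5p, it carries A16G, G18A, U19C, U20A and G21A, and it is 1 base shorter. miR-21b carries C4U inside the seed and G18A, G21U and A22C outside it. Among 1679 mature mouse sequences in the reference, miR-21c was the only other one with the seed AGCUUAU, and none shared the seed AACAGCA of miR-21a-3p. Of the 1167 rows, 947 had a sequence there, so the rest were not compared. Apart from miR-21b and miR-21c, the nearest sequence to miR-21a-5p differed at 8 positions without gaps.

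Mir21a lies on chromosome 11 from 86584067 to 86584158 on the minus strand (GRCm38), inside exon 12 of the protein-coding gene Vmp1, in the part annotated as untranslated and on the same strand. The guide is read from chr11:86584120-86584141 and the passenger from chr11:86584082-86584103, bases 18 to 39 and 56 to 77 of the 92-base hairpin. Mir21c, on the minus strand of chromosome 8 from 128278148 to 128278225, lies outside other annotated genes. Mir21b, on the plus strand of chromosome 3 from 29636744 to 29636851, lies in an intron of Egfem1.

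The table gives, for each genotype, the mean read count after scaling by size factors, called normalised reads from here on. The AC3-/- column adds up to 8739148 and the wild-type column to 12320877, 1.41 times as much. They stand for 19201686 to 20063529 reads over both AC3-/- libraries and 21071945 to 23190561 over both wild-type libraries. Single-library values were worked back from the means for 1122 AC3-/- rows and 1125 wild-type rows, and the libraries are called a and b because the values carry no replicate number. Among 443 miRNAs split this way whose mean reached 10, 114 differed at least 2-fold within the wild-type pair, against 26 within the AC3-/- pair. The 6 miRNAs listed as markers of sensory epithelium and olfactory neurons were all read. The scarcest of them, miR-429-3p, averaged 66250 normalised reads in AC3-/- and 146609 in wild type. Whether their reads came from sensory cells was not tested.

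miR-21a-5p was among the most abundant miRNAs of the tissue in both genotypes, and its mean was higher in AC3-/- without passing the test. The authors' deposited table gives it 999383 normalised reads in AC3-/-, 1.39-fold the 716969 of wild type. It ranked 2 of 1167 in AC3-/- and 6 in wild type. The reads behind these means number 2195845 to 2294404 over both AC3-/- libraries and 1226206 to 1349491 over both wild-type libraries, so counting error is small beside the difference of the means. The spread between libraries is another matter: a mean this large has many whole-read solutions, and miR-21a-5p could not be split into its libraries. The authors' deposited table also gives a log2 fold change of 0.28, with p = 0.582 and an adjusted p of 0.940.

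None of the 3 rows passed an adjusted p of 0.05 in the authors' deposited table, where 1 of 1167 miRNAs did (0.0857%). None had an unadjusted p under 0.05 either, against 41 of 1167 (3.51%).

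The size of the difference for miR-21a-5p depended on the scale. As a share of all normalised reads it made up 11.4% in AC3-/- and 5.82% in wild type, 1.97 times as much. On the log2 scale the difference of the shares is 0.97, that of the means 0.48 and the authors' shrunken value 0.28. All of these are positive, and the authors' p-value belongs to the last of them. The wild-type total held large means of the miR-200 family and miR-183 cluster members that stood next to miR-21a-5p in abundance. How these means split between the 2 wild-type libraries is not known.

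5 miRNAs stood next to it, fewer than 3 above because it ranked 3 by the mean of both genotypes. In the authors' deposited table miR-148a-3p, the most abundant, had 1501741 normalised reads in AC3-/- and 1301717 in wild type, with a log2 fold change of 0.18. The other 4 belong to the miR-200 family and the miR-183 cluster, which are abundant in sensory epithelia, and all were lower in the AC3-/- mean. miR-200b-3p had 399796 and 1351262 in the authors' deposited table, and miR-183-5p 322736 and 1304447. miR-182-5p had 386391 and 1130689 there, and miR-200a-3p 398861 and 997135. Their log2 fold changes, again from the authors' deposited table, ran from -1.19 to -0.86, with unadjusted p from 0.0115 to 0.0465 and adjusted p of 0.940 each. miR-21a-5p thus stood below these 4 in wild type and above them in AC3-/-, while neither it nor any of the 4 passed the adjusted test. Ligation and PCR favour some sequences, so such ranks order reads and not molecules.

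**Figure D1:**
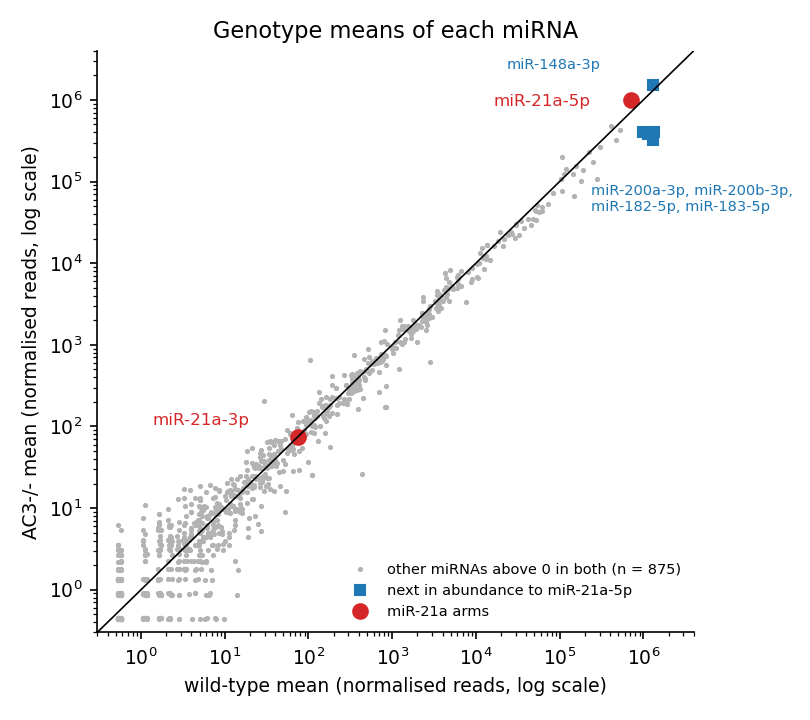
Mean normalised reads of each miRNA above 0 in both genotypes, wild type on the x axis and AC3-/- on the y axis, both on log scales, with equality as a line. miR-21a-5p (999383 against 716969) lies just above the line, and miR-21a-3p (74.1 against 74.8) lies on it. The 4 miRNAs of the miR-200 family and miR-183 cluster of similar abundance lie below the line. miR-21c, at 0 in wild type, is not drawn.

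miR-21a-3p, the passenger strand, had the same mean in both genotypes to within 1%, although its wild-type libraries lay far apart. In the authors' deposited table its means are 74.1 normalised reads in AC3-/- and 74.8 in wild type, with a log2 fold change of -0.01 and an adjusted p of 0.993. The AC3-/- libraries a and b held 65.3 and 82.8 normalised reads (75 and 91 reads). The wild-type libraries a and b held 129 and 21.05 normalised reads (121 and 18 reads). The highest and the lowest of the 4 libraries were thus both wild type, and the AC3-/- pair fell between them.

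The 2 wild-type libraries differed 6.11-fold and the 2 AC3-/- libraries 1.27-fold. Exact 95% Poisson intervals, which cover counting error only, ran from 107 to 154 normalised reads for wild-type library a and from 12.5 to 33.3 for its partner. They ran from 51.4 to 81.9 and from 66.7 to 102 in the AC3-/- libraries. The wild-type intervals do not overlap each other, while those of the AC3-/- libraries do. The genotypes overlap. They did not in 150 of the same 443 miRNAs (33.9%), close to the share of 0.333 that random order gives with 2 libraries a group.

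**Figure D2:**
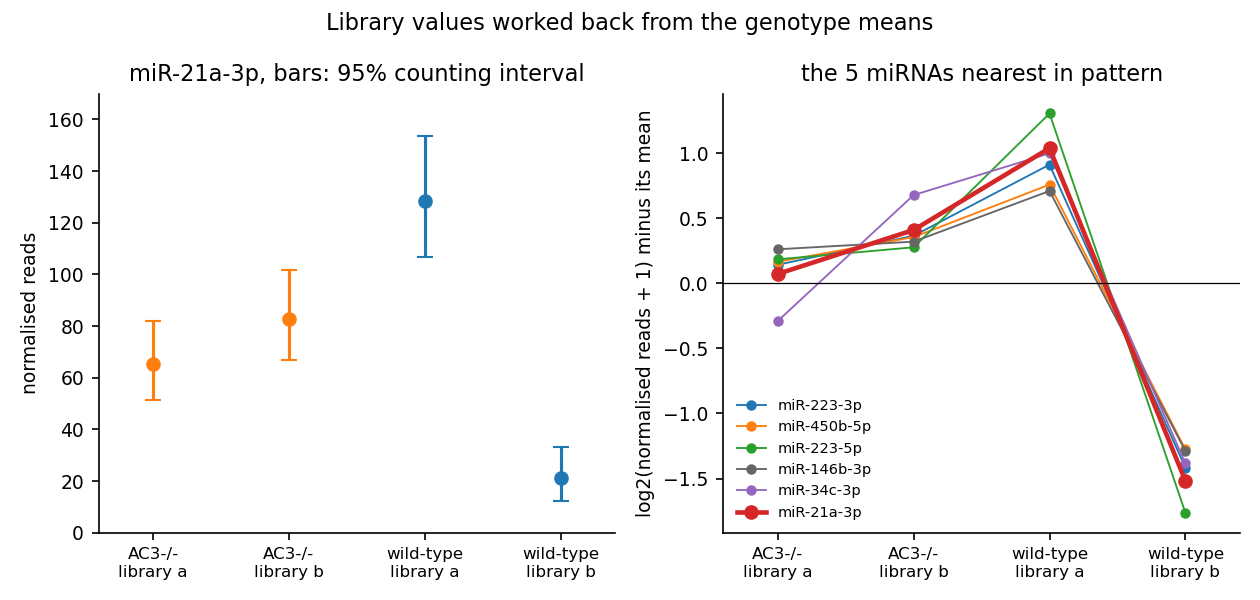
Left, normalised reads of miR-21a-3p in each of the 4 libraries with 95% Poisson intervals for counting error; right, log2(normalised reads + 1) minus its own mean over the 4 libraries for miR-21a-3p and the 5 miRNAs nearest to it, with lines that only join the points of 1 miRNA. miR-21a-3p runs from 129 in wild-type library a to 21.05 in library b with the AC3-/- libraries between, and the 5 others show the same high and low library.

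The direction of the genotype difference for miR-21a-3p followed the choice of wild-type library. The AC3-/- mean was 0.576 times wild-type library a and 3.52 times wild-type library b. On the scale of log2(normalised reads + 1), a limma fit across the 443 miRNAs put the AC3-/- libraries 0.48 higher (standard error 0.84, adjusted p = 0.931). This fit compares means of logs, in which a low library weighs more than it does in the deposited means. No miRNA passed the adjusted p in that fit (0%), and 18 of 443 (4.06%) had an unadjusted p under 0.05.

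Without wild-type library a the limma log2 difference of miR-21a-3p was 1.76 with an adjusted p of 0.00679, and 64 of 443 miRNAs passed (14.4%). Without wild-type library b it was -0.80 with an adjusted p of 0.528, and 1 of 443 passed (0.226%). In both of these fits the lone wild-type library is assumed to vary like the AC3-/- pair. Without AC3-/- library a or b the difference was 0.65 or 0.31, with adjusted p of 0.999 and 0.993. With 2 libraries a group, the smallest p of an exact permutation test is 0.333.

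Between the wild-type libraries, miR-21a-3p was one of the miRNAs most reduced in library b. Its log2 ratio of library b to library a was -2.55 after adding 1 to each value, the eighth lowest of 443, where the median was 0.04 and the SD 1.11. Between the AC3-/- libraries its log2 ratio was 0.34, and 218 of 443 miRNAs lay at least as far from 0. The 7 miRNAs with a lower wild-type ratio, named after their values were seen, were both arms of miR-147, both arms of miR-449a, miR-449c-5p, miR-155-3p and miR-223-5p. miR-155 and miR-147 are known from activated macrophages, miR-223 from myeloid cells and miR-449 from multiciliated cells. For miR-147-3p the wild-type libraries a and b held 126 and 3.51 normalised reads and the AC3-/- libraries 47.0 and 77.4. For miR-449a-5p they held 9079 and 512, and 4027 and 5969. In wild-type library b 3 reads equal 3.51 normalised reads. The values there of miR-147-3p (3.51), miR-155-3p (0), miR-147-5p (2.34) and miR-449a-3p (4.68) thus rest on very few reads, and their ratios are loosely fixed.

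**Figure D3:**
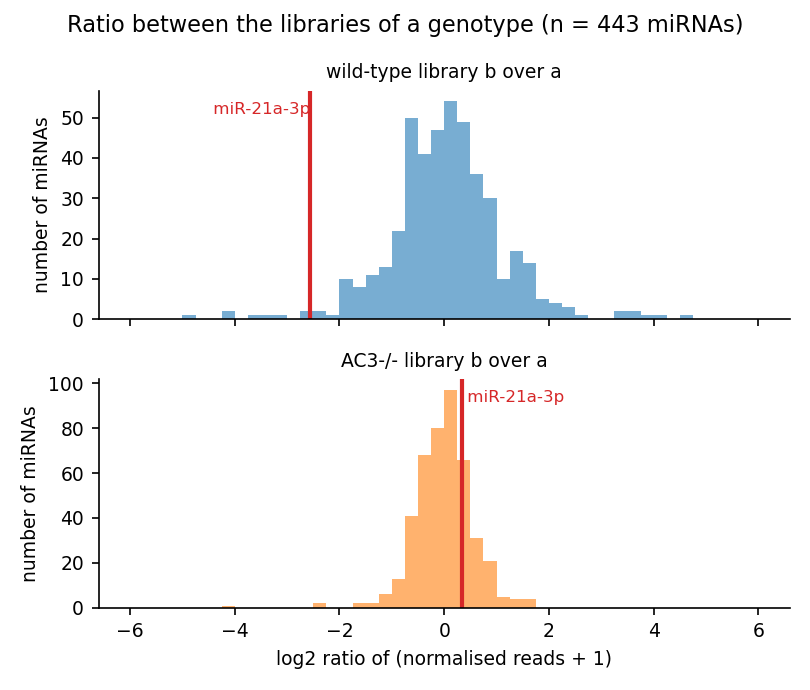
Number of miRNAs by the log2 ratio of library b to library a, after adding 1 to each value, in wild type (top) and AC3-/- (bottom), for the 443 miRNAs whose mean reached 10. miR-21a-3p, the red line, lies in the low tail between the wild-type libraries (-2.55) and inside the bulk between the AC3-/- libraries (0.34).

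The miRNA whose values ran most like those of miR-21a-3p was miR-223-3p, which is made in neutrophils and other myeloid cells. Likeness was the Euclidean distance between log2(normalised reads + 1) values over the 4 libraries, each miRNA centred on its own mean, among 442 other miRNAs. miR-223-3p had 632 and 738 normalised reads in AC3-/- and 1079 and 214 in wild type, at a distance of 0.18 where the median miRNA lay at 1.98. miR-450b-5p followed at 0.39, with 46.2 and 52.8 in AC3-/- and 70.1 and 16.4 in wild type. The other strand of the miR-223 precursor, miR-223-5p, came next at 0.40, with 125 and 133 in AC3-/- and 272 and 31.6 in wild type.

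miR-146b-3p, the scarcer strand of an inflammation-linked miRNA, lay at 0.45 and had 12.2 and 12.7 normalised reads in AC3-/- and 17.0 and 3.51 in wild type. Its 3.51 in wild-type library b equals 3 reads. miR-34c-3p, made in multiciliated cells, lay at 0.47 and had 3580 and 7000 in AC3-/- and 8740 and 1676 in wild type. All 5 were highest in wild-type library a and lowest in wild-type library b, as miR-21a-3p was. The 4 points share their libraries and scaling, and the distance is set mostly by the gap between the wild-type libraries.

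Within the precursor, the guide outnumbered the passenger by more than in any other pair of like-named arms with a well-read passenger. Pairs were matched by name, so guides shared by numbered precursors, such as let-7f-5p beside let-7f-1-3p and let-7f-2-3p, were left out. The authors' deposited means give 13490 reads of miR-21a-5p per read of miR-21a-3p in AC3-/- and 9584 in wild type. Among 143 precursors matched this way whose passenger had a mean of at least 10, miR-21a ranked 1 by this ratio in each genotype. The median ratio was 14.3. The next were let-7g (ratios of 3014 in AC3-/- and 7090 in the wild-type means) and miR-99a (3886 and 4787). Over all 339 pairs matched by name, 6 had a higher ratio, all with a passenger mean under 10: miR-101a, miR-146a, miR-192, miR-23a, miR-320 and miR-429. Guides left out were not counted. Among them, let-7f-5p had 324103 normalised reads in AC3-/- and 466344 in wild type, against 18.7 and 18.8 of let-7f-1-3p. Set against that passenger alone, its ratio was higher than that of miR-21a in both genotypes. The arms differ in sequence, so ligation enters these ratios.

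The ratio of guide to passenger was higher in AC3-/- by 0.49 on the log2 scale. This value has no test, because the guide has no single-library values, and the passenger's spread in wild type enters it in full. Over the 143 precursors the difference had a median of -0.11 and an SD of 0.57. Of these, 40 (28.0%) lay at least as far from 0 and 19 at least as high. The shift for miR-21a thus lay above the upper quartile of 0.30 and inside the range of the other precursors. Arms of 1 precursor tended to differ alike between the wild-type libraries: over 112 precursors with values for both arms, the log2 ratios of library b to library a had a Pearson r of 0.81 and a Spearman rho of 0.68 across precursors, which share these libraries and are not independent. The arms still differed from each other by a median of 0.51 on the log2 scale and by up to 2.35. miR-21a was not among the 112, and whether miR-21a-5p was also low in wild-type library b was not tested.

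**Figure D4:**
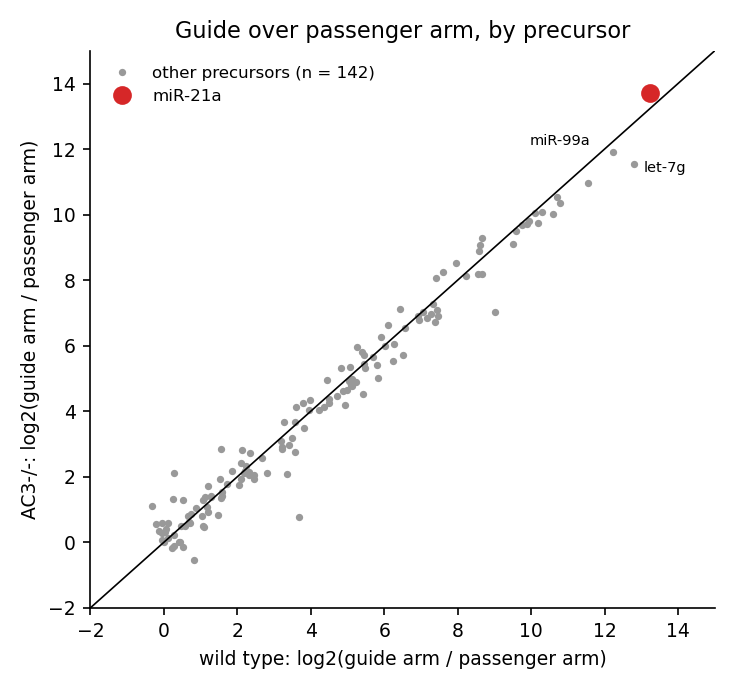
Log2 ratio of the more abundant (guide) to the less abundant (passenger) arm in wild type (x axis) and AC3-/- (y axis), with equality as a line. Drawn are 143 precursors with like-named arms and a passenger mean of at least 10. miR-21a sits beyond all others drawn in both genotypes, at 13.2 in wild type and 13.7 in AC3-/-, slightly above the line.

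miR-21c, the look-alike that shares the guide's seed, was scarcely read. A single read was worked back in AC3-/- library b and none in the other 3 libraries. That read is worth 0.910 normalised reads. The floor set for a count of 0 is 3 reads, about the one-sided 95% Poisson limit, and it equals 3.19 (wild-type library a), 3.51 (wild-type library b) and 2.61 (AC3-/- library a) normalised reads. Both genotypes are at or under this floor, so no fold is given; the authors' deposited table gives p = 0.588 and an adjusted p of 0.940. Among the 947 rows with a reference sequence, the reads with the AGCUUAU seed are those of miR-21a-5p but for this 1 read.

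miRNAs that are often described beside miR-21 in injured or inflamed tissue showed no call. Of 14 on that list, 9 lay above 0 by their log2 fold change (authors' deposited table; all miRNAs: 578 of 1167, 49.5%), with a median of 0.14 (all miRNAs: -0.01). None had an unadjusted p under 0.05. The most abundant, miR-146a-5p, a brake on innate immune signalling, had 201431 normalised reads in AC3-/- and 105973 in wild type with p = 0.0908 and an adjusted p of 0.940 in the authors' deposited table. Next came miR-29a-3p, known for its collagen targets, with 45312 and 51437, and the mesenchymal miR-199a-5p with 22980 and 27300. Of the 11 members with values for all libraries, 10 were lower in wild-type library b than in a, as were 213 of the 443 miRNAs (48.1%). By these values 8 of the 11 had a higher AC3-/- mean with both wild-type libraries and 5 of 11 without library b.

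Leukocyte markers were lower in wild-type library b, as miR-21a-3p was, and so were markers of other cell types. All 5 were lower there (median log2 ratio of library b to a -1.79), as were 213 of the 443 miRNAs (48.1%), and none was near 0. They were miR-142a-3p, miR-142a-5p, miR-155-5p, miR-150-5p and miR-223-3p, with 3 also on the injury list. The first 2 are arms of the same precursor and not separate markers. The summed level of the 5 was 14116 and 17682 normalised reads in the AC3-/- pair. It was 16553 for wild-type library a but 5197 for wild-type library b. All 5 had a higher AC3-/- mean in the authors' deposited table, as did 578 of 1167 miRNAs (49.5%). When wild-type library b was left out, 2 of 5 did, and no share over all miRNAs is given for that count. The median log2 fold change of the 5 was 0.35 in the authors' deposited table, with no unadjusted p under 0.05. The most abundant of them, miR-142a-3p, held 6699 and 8355 normalised reads in the AC3-/- libraries and 6566 and 1901 in the wild-type libraries.

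Of the 6 multiciliated-cell markers, 5 had library values, and all 5 were lower in wild-type library b (median -2.38). Their summed levels were 13839 and 26206 in the AC3-/- pair, 30579 for wild-type library a and 5971 for wild-type library b. The 6 are both arms of miR-34b and of miR-34c with miR-449a-5p and miR-449c-5p. Since arms of the same precursor tended to differ alike, they are not 6 separate markers. All 6 had a higher AC3-/- mean in the authors' deposited table (median log2 fold change 0.06, no unadjusted p under 0.05), as did 578 of 1167 miRNAs (49.5%). By library values 5 of 5 did with both wild-type libraries and 0 of 5 without library b. No share over all miRNAs is given for the counts by library values. The 3 mesenchymal markers with library values were each lower in wild-type library b too (median -0.31), and summed to 22542 and 22487 in the AC3-/- libraries and to 21097 and 16884 in the wild-type libraries. So were the 3 of basal and squamous epithelium (median -0.12), which summed to 20971, 22997, 28753 and 20983 in the same order. The 1 endothelial marker with library values was lower in library b as well (-1.05), while the 1 neuronal marker was higher (0.79). The part of any of these cell types in the spread of miR-21a-3p was not tested. The 6 markers listed for sensory epithelium and olfactory neurons had no library values. All 6 had a lower AC3-/- mean in the authors' deposited table (median log2 fold change -0.92). Of these, 4 had an unadjusted p under 0.05 there, against 41 of 1167 miRNAs (3.51%), and none passed the adjusted p. Of the 6 mesenchymal markers, 3 had a higher AC3-/- mean there (median log2 fold change -0.02), and of the 3 of basal and squamous epithelium 0 did (-0.16). Of the 2 endothelial markers, 1 had a higher AC3-/- mean (median log2 fold change 0.11). So did the 3 neuronal ones (0.17), of which miR-124-3p was the 1 miRNA past the adjusted p.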

How the data were processed

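Per the labels' protocols, frozen tissue was extracted with Trizol, and adaptors were ligated to both ends of small RNAs before PCR and gel selection by length. DESeq 1.8.3, Bowtie and GRCm38 are named in the submitters' processing notes, with no role or order. How reads were counted and filtered, and against which miRBase release, is not given in the sources used here. As deposited, the abundance values are a signal: the mean of each genotype's normalised read counts, per the file headers and the values. The authors also deposited a log2 fold change, shrunken toward 0, and a p-value with its adjusted form, which equals a Benjamini-Hochberg adjustment over all rows to the digits given. All per-genotype results of single miRNAs come from that table, with an adjusted p of 0.05 as threshold.

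A genotype mean adds up whole reads of 2 libraries, each read worth a fixed amount in its library. Rows with 1 whole-read solution were split into libraries. The size factors found were 1.148 (a) and 1.099 (b) in AC3-/- and 0.941 (a) and 0.855 (b) in wild type. The test on library values was limma 3.58.1 under R 4.3.3 (intensity trend, pseudocount 1, mean of at least 10). Both the splitting into libraries and this fit were tested on simulated data with known answers. For the fit, all simulated libraries varied alike. Here the log2 ratios of library b to a had an SD of 1.11 in wild type and 0.57 in AC3-/-. The simulation thus does not test the fit under such unequal spread.

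Besides the members, miRNAs were named by rule: those sharing a member's seed, up to 3 next above and below miR-21a-5p in abundance, the 5 nearest in pattern to miR-21a-3p, and members of lists. The members and lists were chosen with earlier results of these data known. Since the labels describe no molecular identifiers, intervals on reads cover counting error only. Log2(value + 1) understates changes of low miRNAs.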

Additional observations from a re-analysis of the deposited data

How the results depend on the processing

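For miR-21a-5p the deposited log2 fold change of 0.28 was 0.48 as the ratio of the means, 0.97 as a share of the total and 0.58 with the median log2 ratio of miRNAs with a mean of at least 100 (-0.10) set to 0. No library could be left out for it, nor for the guide-to-passenger ratio, whose 2 other settings both gave 0.49. For miR-21a-3p the deposited -0.01 turned to 0.48 as a share of the total, 0.085 with that median set to 0, 0.48 in limma, 0.41 with a pseudocount of 5 (adjusted p = 0.935) and 0.48 with no filter (adjusted p = 0.849). Leaving out 1 library, limma gave -0.80 without wild-type library b, 1.76 without wild-type library a, and 0.65 and 0.31 without AC3-/- library a or b (adjusted p from 0.00679 to 0.999). Adjusting the authors' p over the 492 rows whose mean reached 10 called neither arm. miR-21c had values only in the table and in limma with no filter (adjusted p = 0.772). Counts of the injury, leukocyte and multiciliated lists without wild-type library b (5, 2 and 0 members with a higher AC3-/- mean) were chosen after seeing the data. No share over all miRNAs is given beside these counts, and they were not made without wild-type library a. No paired analysis was possible because the library values carry no replicate numbers.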

Other observations

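The authors' log2 fold change of miR-21a-5p is shrunken more than that of most miRNAs. It kept 57.4% of the unshrunken log2 ratio, where the median was 82.6% over 122 miRNAs whose mean reached 100 and whose log2 ratio was at least 0.3 in size; 7 of the 122, miR-21a-5p included, kept this little or less. Library values existed for 6 miRNAs that kept under 60%, and their wild-type libraries lay a median of 2.92 apart on the log2 scale. For the 91 with library values that kept more, the median was 0.60. Shrinkage itself rests on the spread between libraries, so this contrast is built into the method. It does not show how miR-21a-5p was split between libraries. The limits of 0.3 and 60% were chosen after the values were seen, and the values for miR-21a-5p in each wild-type library are not known.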
